A study of Mus musculus with 6 samples.

Results

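The genes described here are 10 core and output genes of the circadian clock, Per1, Per2, Per3, Nr1d1, Nr1d2, Dbp, Tef, Arntl, Clock and Ciart, in mouse spleen. They were chosen by name, and all 10 were found among the 32285 genes of the count tables. The study sequenced single splenocytes of wild-type (WT) C57BL/6 mice, which were 6 weeks old when they were put on ND or MCDHFD for 7 weeks. There were 3 libraries per diet, ND 1 to 3 and MCDHFD 1 to 3. The sample titles call the second diet MCD and the growth protocol calls it MCDHFD, and neither spells it out. The labels describe the mice as a model of MASH (metabolic dysfunction-associated steatohepatitis). They give neither the hour at which spleens were taken nor whether a library holds 1 animal, so p-values measure the spread between libraries.

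The clock is a loop of transcription that runs in almost every cell and turns over once a day. ARNTL (BMAL1) and CLOCK form a pair that binds E-box sequences and switches on the Per, Nr1d, Dbp, Tef and Ciart genes. PER proteins, together with cryptochromes, and CIART (CHRONO) then repress that pair. NR1D1 and NR1D2 (REV-ERB alpha and beta) repress Arntl through ROR elements (ROREs), while DBP and TEF activate genes that carry D-boxes. In mouse tissues Arntl and Dbp transcripts therefore peak at opposite times of day, so their balance is a usual readout of clock phase. Per1 also responds directly to glucocorticoid hormones, which themselves follow a daily rhythm and rise under stress.

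Cells were taken with at least 1000 unique molecules (UMIs) and at most 10% mitochondrial UMIs, and were put into 6 classes by marker UMIs. B cells had at least 2 Cd79a UMIs, CD8 T cells had Cd3e and Cd8b1, and CD4 T cells had Cd3e and Cd4. NK cells had Ncr1 without Cd3e, monocytes and macrophages had Csf1r, and neutrophils had Csf3r and at least 5 S100a8 UMIs. Of 31542 cells kept, 24895 met exactly 1 rule and were used. The smallest group was the 33 NK cells of MCDHFD 3. A level is given in CPM, the UMIs of a gene in 1 class and library scaled to a total of 1000000 UMIs, and all p-values are Benjamini-Hochberg adjusted over all genes tested in that class unless said otherwise.

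Each class was richest in its own markers that the rules did not use. The 4 B cell markers summed to between 2796 and 3705 CPM in B cells and to at most 115 CPM in any other class. The 4 neutrophil markers summed to between 102719 and 155135 CPM in neutrophils, against at most 2433 CPM elsewhere. The CD8 T and CD4 T check lists share T cell genes and do not separate those classes from each other. Monocyte and macrophage markers were also high in neutrophils, at 2117 to 10136 CPM, and the erythroid markers Hba-a1 and Hbb-bs summed to 1939 to 18784 CPM in monocytes and macrophages.

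ND 2 and MCDHFD 3 stood apart from the other 4 libraries in both diets. They were deposited with filtered barcode lists (3409 and 3807 barcodes) written by Cell Ranger 7.2.0, while the others list 1114720 to 1345921 barcodes and were written by version 9.0.1, per the file headers. Kept cells of ND 2 and MCDHFD 3 had a median of 0.569% and 1.68% mitochondrial UMIs, against 3.73% to 3.96% in the others. Their libraries held 21956506 and 21259837 UMIs, against 45223393 to 62238012. Of their kept barcodes, at most 95 and 101 occurred in the list of any library with an unfiltered list, and no pair of libraries shared more than 18 kept barcodes. Between libraries of different list form the chi-square per degree of freedom over gene counts was 299.9 to 454. It was 71.1 between ND 2 and MCDHFD 3, which are on different diets, and 15.6 between MCDHFD 1 and MCDHFD 2. Each class was therefore fitted with diet and list form as 2 terms, and list form stands for everything that sets those 2 libraries apart. Chemistry, processing and harvest cannot be told apart within it. List form does not cover ND 1, which also differed from the other unfiltered libraries. Of its 6548 kept barcodes 2174 were in the list of ND 3, while all 4962 of ND 3 were in that of MCDHFD 1. The chi-square per degree of freedom of ND 1 was 72.8 to ND 3 and 158 and 182.5 to MCDHFD 1 and 2. That of ND 3 was 53.5 and 72.8 to MCDHFD 1 and 2. No term was fitted for ND 1, and the 4 unfiltered libraries alone hold it too.

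The windows around the start sites of 9 members were found in the RefSeq promoter table (GRCm38.p6, 250 bases before to 50 after the start), and Per2 is named only. They were searched for the E-box CACGTG, the D-box TTATGTAA and the RORE TAGGTCA on both strands. Of the 6 windows with a match, 4 are printed so that each element of the loop is shown, with matched letters in capitals, and both Tef windows are left out. They are the windows of Ciart (chr3:95882179-95882478, minus strand), the first of Per1 (chr11:69098699-69098998, plus strand), that of Per3 (chr4:151044616-151044915, minus strand) and the second of Arntl (chr7:113207261-113207560, plus strand).
Ciart: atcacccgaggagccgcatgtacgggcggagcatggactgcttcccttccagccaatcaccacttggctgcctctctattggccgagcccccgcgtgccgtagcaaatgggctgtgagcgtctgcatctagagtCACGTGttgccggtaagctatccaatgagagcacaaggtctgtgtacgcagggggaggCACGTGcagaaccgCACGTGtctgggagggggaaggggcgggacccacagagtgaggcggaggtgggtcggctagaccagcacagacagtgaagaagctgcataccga
Per1: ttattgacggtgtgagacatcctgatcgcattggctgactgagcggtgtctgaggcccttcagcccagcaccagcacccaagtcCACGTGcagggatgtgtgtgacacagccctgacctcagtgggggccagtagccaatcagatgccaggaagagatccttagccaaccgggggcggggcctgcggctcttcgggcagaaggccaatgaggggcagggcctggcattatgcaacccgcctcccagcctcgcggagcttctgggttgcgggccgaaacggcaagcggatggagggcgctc
Per3: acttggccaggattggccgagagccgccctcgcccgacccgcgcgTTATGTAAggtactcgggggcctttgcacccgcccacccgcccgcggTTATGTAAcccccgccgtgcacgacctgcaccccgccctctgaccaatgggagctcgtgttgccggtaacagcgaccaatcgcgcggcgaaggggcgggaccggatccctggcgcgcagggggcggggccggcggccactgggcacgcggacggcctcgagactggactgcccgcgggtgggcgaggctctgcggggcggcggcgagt
Arntl: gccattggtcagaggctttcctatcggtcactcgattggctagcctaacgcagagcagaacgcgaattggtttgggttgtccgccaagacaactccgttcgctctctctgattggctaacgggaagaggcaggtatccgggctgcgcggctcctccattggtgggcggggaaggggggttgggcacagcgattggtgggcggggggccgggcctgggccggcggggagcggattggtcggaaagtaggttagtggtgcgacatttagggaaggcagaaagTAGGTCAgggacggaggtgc

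Counted from the start site, the Ciart E-boxes begin at -116, -58 and -44 and that of Per1 at -166. Tef has an E-box in each of its 2 windows. E-boxes were thus found in 3 of the 9 members (Per1, Tef and Ciart), and in 8.09% of all 27025 genes of the table. The 2 D-boxes of Per3 begin at -205 and -158, and 1.11% of genes hold this motif. The RORE of Arntl begins 31 bases after the start, and 2.97% of genes hold it. A match describes these letters only, and no match in a window says nothing of elements outside it.

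The activators Arntl and Clock were well measured in 5 of the 6 classes and sparse in neutrophils. Arntl was highest in CD4 T cells (40.9 ± 12.1 CPM, SD, n = 6 libraries) and B cells (38.1 ± 8.88), which did not differ beyond their spread. NK cells, monocytes and macrophages, and CD8 T cells followed at 32.4 ± 10.8, 25.6 ± 9.95 and 24.4 ± 4.65 CPM. Neutrophils held between 0 and 2.86 CPM, on 13 UMIs in all 6 libraries. In the barcodes with at most 100 UMIs of the 4 unfiltered libraries, which stand for free RNA, Arntl was at 12.6 to 24.1 CPM. Neutrophils of the same libraries lay below that, at 1.45 to 2.86 CPM.

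In B cells, Arntl was at 39.8, 30.1 and 40.8 CPM in ND 1 to 3, and at 47.8, 45.1 and 24.8 CPM in MCDHFD 1 to 3. The 2 libraries with filtered lists were the lowest of the 6. Clock, the DNA-binding partner of ARNTL, had the same order of list forms in B cells, at 34.6, 24.9 and 37.8 CPM in ND and 54.8, 52.8 and 25.8 CPM in MCDHFD. Clock was highest in monocytes and macrophages (55.3 ± 15.3 CPM), which exceeded B cells, the next class, in 6 of 6 libraries. B, CD4 T, CD8 T and NK cells lay between 38.4 and 32.7 CPM, within their spread of each other, and neutrophils were lowest (6.77 ± 4.74 CPM).

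**Figure D1:**
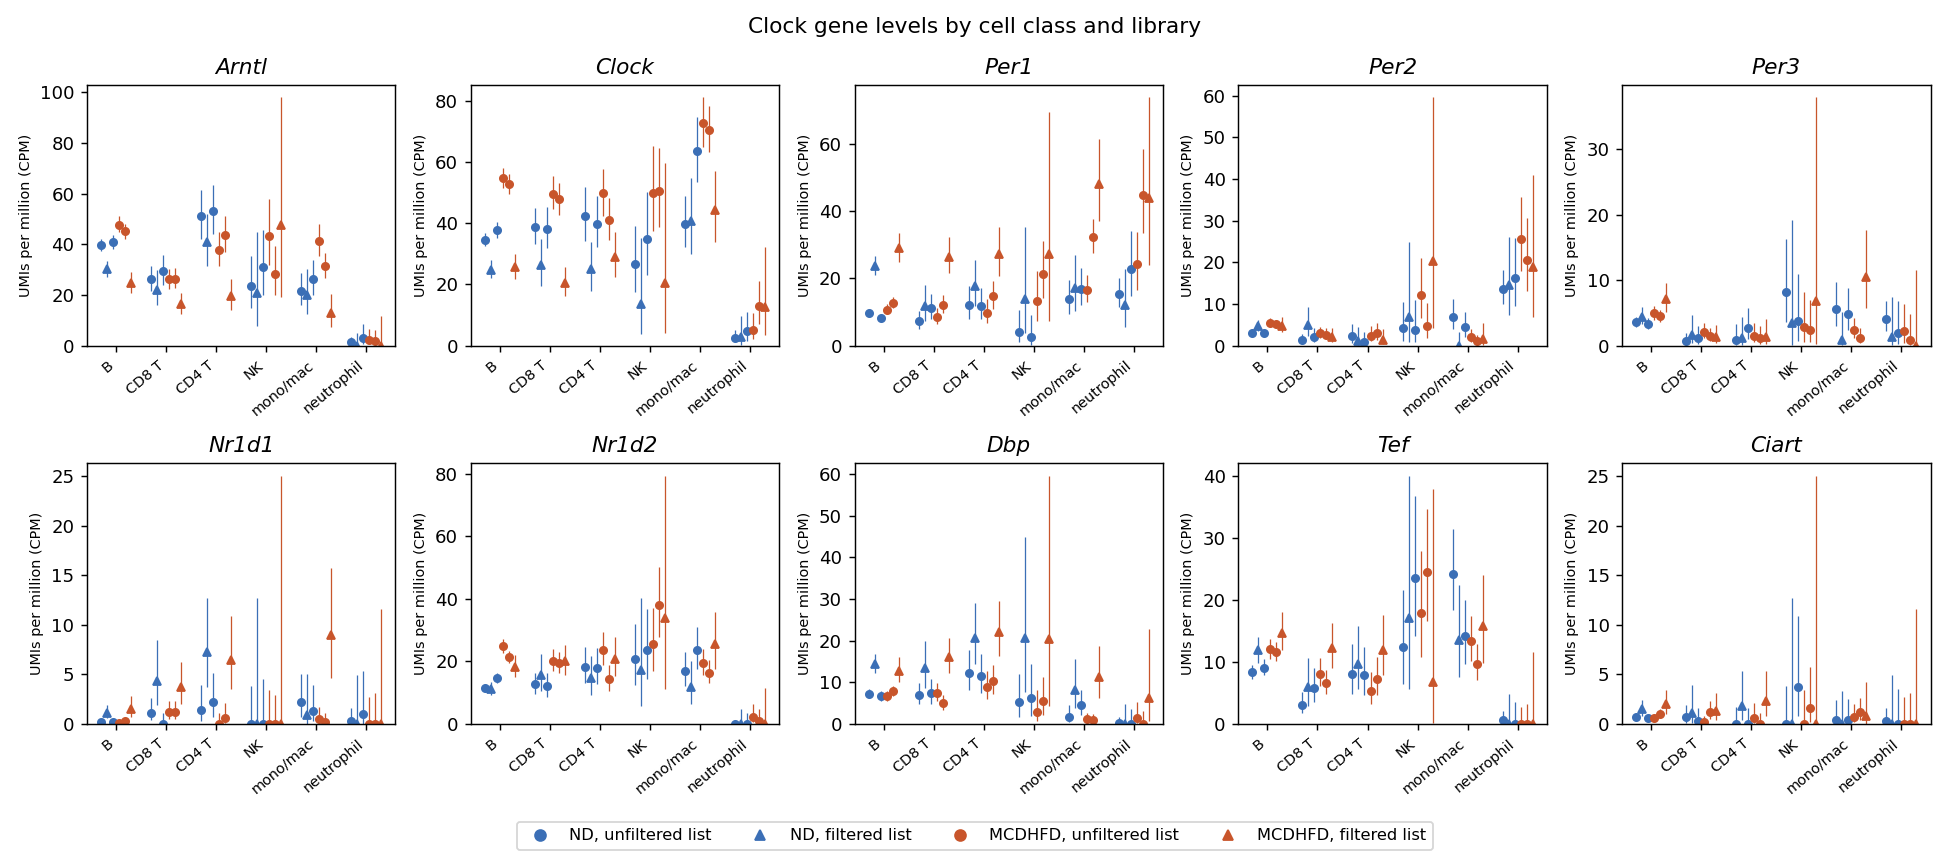
CPM of each clock gene by cell class, with 1 point per library, circles for unfiltered and triangles for filtered barcode lists, blue for ND and orange for MCDHFD, and exact Poisson 95% intervals that cover counting error only. Arntl, Nr1d2 and Tef are at or near 0 in neutrophils, where Per2 is highest, and in B cells the triangles lie below the circles for Arntl and Clock and above them for Per1 and Dbp.

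Of the Period genes, which encode repressors of the ARNTL and CLOCK pair, Per1 was detected in every class and library. Its mean was highest in neutrophils (27.2 ± 14.1 CPM) and in monocytes and macrophages (24.2 ± 13.4), and the other 4 classes lay between 15.7 and 12.9 CPM, within their spread of each other. In B cells Per1 was at 9.66, 23.7 and 8.21 CPM in ND and at 10.7, 12.8 and 29.0 CPM in MCDHFD. The filtered libraries were the highest 2. In barcodes with at most 100 UMIs Per1 was at 10.2 and 8.25 CPM in ND 1 and 3 and at 15.3 and 21.0 CPM in MCDHFD 1 and 2, at or above B cells of the same libraries and higher with MCDHFD.

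Per2 had another order, with neutrophils first (18.3 ± 4.47 CPM), above NK cells (8.68 ± 6.54), the next class, in 5 of 6 libraries. Its levels in neutrophils were 13.6, 14.6 and 16.2 CPM in ND and 25.6, 20.6 and 18.9 CPM in MCDHFD, so the diets did not overlap. The fitted difference was 0.51 (log2, SE 0.32) and did not pass the test (edgeR quasi-likelihood, adjusted p = 0.256). Diets also did not overlap for 30.3% of all genes tested in neutrophils. Per3 was low throughout, at most 4.62 CPM on average in any class.

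Nr1d2 (REV-ERB beta) was well measured and Nr1d1 (REV-ERB alpha) was close to the limit of detection. Nr1d2 averaged 26.4 ± 7.96 CPM in NK cells and 18.9 to 16.6 CPM in monocytes and macrophages, CD4 T, B and CD8 T cells. NK cells exceeded monocytes and macrophages, the next class, in 6 of 6 libraries. Neutrophils held 4 Nr1d2 UMIs in all, in MCDHFD 1 and 2. Nr1d1 averaged at most 2.99 CPM in any class. In NK cells no Nr1d1 UMI was found in any library, which allows at most 2.37 to 20.4 CPM at 3 counts per library.

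Dbp and Tef encode PAR bZIP factors, the classic clock outputs. Dbp averaged 14.3 ± 5.69 CPM in CD4 T cells, more than in NK cells, the next class, in 6 of 6 libraries. NK, CD8 T and B cells did not differ beyond their spread (10.1, 9.33 and 9.26 CPM), and monocytes and macrophages were at 4.63 ± 4.25. Tef averaged 17.0 ± 6.72 CPM in NK cells and 15.2 ± 4.89 CPM in monocytes and macrophages. It averaged less in B (11.3), CD4 T (8.41) and CD8 T cells (6.97 CPM). Neutrophils held 5 Dbp UMIs and 2 Tef UMIs in all. Ciart averaged 1.05 CPM in B cells and less in every other class.

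The question put to these genes was whether they move together between libraries in all classes. In B, CD8 T and CD4 T cells more members passed by list form than by diet, and Arntl and Clock differed in the direction opposite to Per1, Dbp and Nr1d1. This did not extend to neutrophils, where by list form Clock was at 0.21, Per1 at -0.04 and Per2 at -0.10 (log2), none past the test, and by diet at 1.45, 1.00 and 0.51, of which Per1 passed. In B cells 7 of the 10 members passed the test for list form (edgeR quasi-likelihood, adjusted p under 0.05), 4 higher and 3 lower in the filtered libraries. The lower ones were Arntl, Clock and Nr1d2 (-0.41, edgeR adjusted p = 0.0273), so not every target of the ARNTL and CLOCK pair was higher. Per2, Per3 and Tef passed in no class by list form. The background is high, since 53.5% of all genes tested in B cells passed. In CD8 T cells 5 of 8 tested members passed and in CD4 T cells 5 of 7, against 48.5% and 46.4% of all genes. A count of members near such shares is no result about the clock, and what follows are the values and their directions.

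Arntl was lower in the filtered libraries by a log2 difference of -0.79 in B cells (SE 0.107, edgeR adjusted p = 0.000569), -0.63 in CD8 T and -0.77 in CD4 T cells. In NK cells its difference was -0.05 and in monocytes and macrophages -0.82, and neither passed (edgeR adjusted p = 0.958 and 0.0939). Clock was lower by -0.93 in B cells (SE 0.113, edgeR adjusted p = 0.000336), by -1.05 in CD8 T and by -0.76 in CD4 T cells. NK cells, at -1.27, and monocytes and macrophages, at -0.46, did not pass for Clock (edgeR adjusted p = 0.0716 and 0.183).

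Per1, Dbp and Nr1d1, which the ARNTL and CLOCK pair drives, were higher in the filtered libraries in B, CD8 T and CD4 T cells. In NK cells Per1 differed by 1.10 without passing (edgeR adjusted p = 0.284), and Nr1d1 had no UMI. Dbp differed by 0.78 in B cells (SE 0.138, edgeR adjusted p = 0.002), 1.10 in CD8 T, 0.94 in CD4 T and 2.48 in monocytes and macrophages, all past the test. NK cells, at 1.92, missed it (edgeR adjusted p = 0.0681). Per1 differed by 1.21 in B cells (SE 0.125, edgeR adjusted p = 0.000176), 0.94 in CD8 T and 0.82 in CD4 T cells. Nr1d1 differed by 2.43, 1.94 and 2.80 in the same 3 classes, on at most 14 UMIs in any library. Ciart (1.10) was also higher and Nr1d2 (-0.41) lower in B cells, where both passed.

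The directions of Arntl, Clock, Per1, Dbp and Nr1d1 in B, CD8 T and CD4 T cells were the same with upper-quartile scaling and in DESeq2. Per1 in CD4 T cells was not called in DESeq2 (adjusted p = 0.0914). In CD8 T and CD4 T cells the calls leaned on MCDHFD 3, and without it 1 of the members passed in either class. Arntl then differed by -0.48 in both (edgeR adjusted p = 0.148 and 0.112), Dbp by 0.77 and 0.68 (0.161 and 0.154), and Per1 by 0.24 and 0.42 (0.7 and 0.428). In B cells Arntl, Clock, Per1, Dbp and Nr1d1 passed whichever library was left out.

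In NK cells, monocytes and macrophages, and neutrophils the pattern was partial or not measurable. No member of 7 passed by list form in NK cells in edgeR, with 2 at an unadjusted p under 0.05, against 15.3% of all genes. DESeq2 gave no adjusted p for 4 of these 7 and called none of the others, against 9.65% of all genes. In monocytes and macrophages Dbp alone of 8 passed, against 19.8%, and it lost the call without ND 1, MCDHFD 1, MCDHFD 2 or MCDHFD 3 (edgeR adjusted p = 0.0573, 0.0965, 0.0536 and 0.381). In neutrophils none of the 3 members tested passed in edgeR, with 0 at an unadjusted p under 0.05, against 10.9%. DESeq2 gave no adjusted p for 2 of these 3 and did not call the other, against 9.39%. Per2, Per3 and Tef passed in no class by list form. Per2 was tested in 5 classes, Per3 in 2 and Tef in 5.

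**Figure D2:**
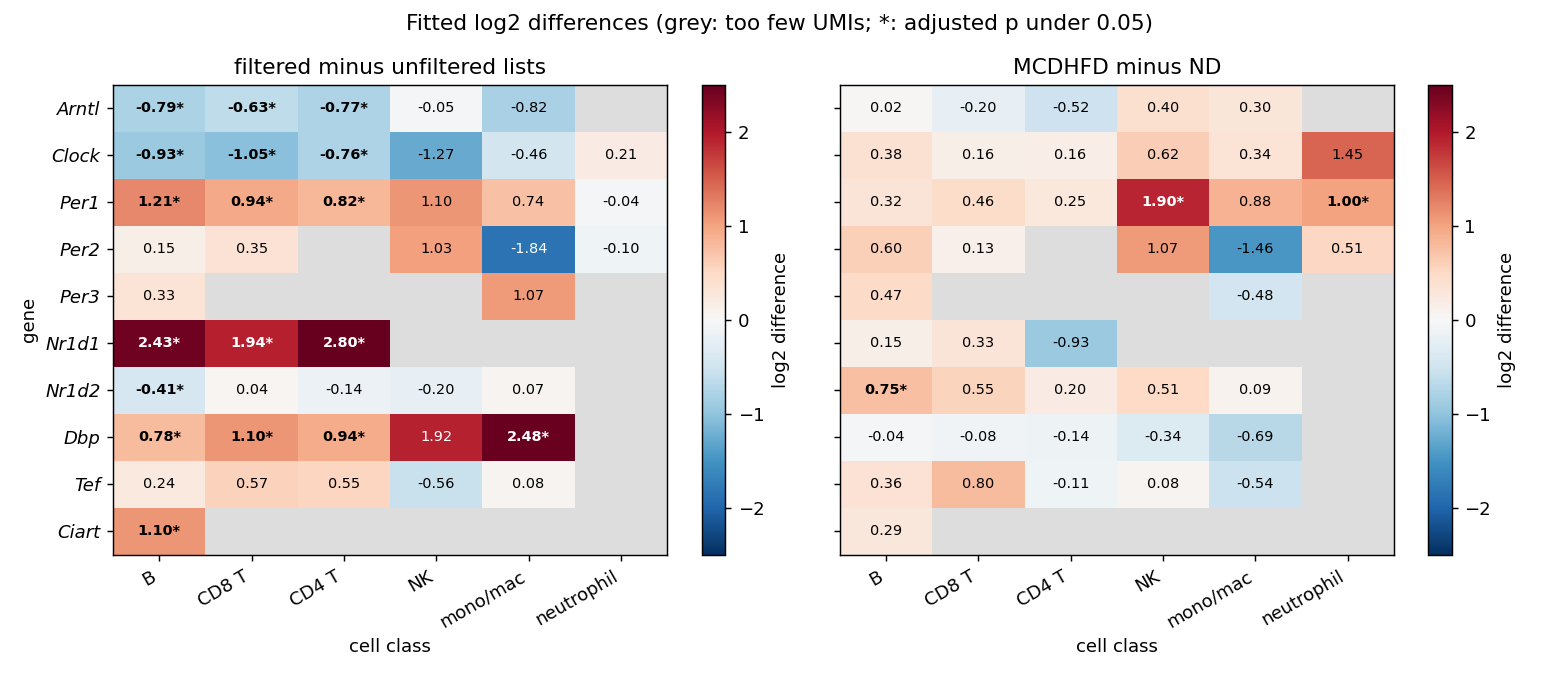
Fitted log2 differences of the members in each class, filtered minus unfiltered libraries on the left and MCDHFD minus ND on the right, with an asterisk and bold type where the edgeR adjusted p was under 0.05 and grey where a gene had too few UMIs to be tested. Arntl and Clock are negative and Per1, Nr1d1 and Dbp positive in the first 3 columns by list form, and 3 differences by diet passed.

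Levels by library showed this picture in part. Dbp in the 2 filtered libraries was above all 4 others in each of the 5 classes in which it was tested. In CD4 T cells, for example, it was at 20.7 and 22.2 CPM in ND 2 and MCDHFD 3, and at 8.89 to 12.2 CPM in the others. Arntl was below all 4 others in B cells, CD8 T cells, and monocytes and macrophages, and overlapped in CD4 T cells, where ND 2 (40.8 CPM) exceeded MCDHFD 1 (37.6 CPM). In NK cells Arntl was lowest in one filtered library, ND 2 (20.6 CPM), and highest in the other, MCDHFD 3 (47.6 CPM, on 7 UMIs). Clock was below in B, CD8 T, CD4 T and NK cells, and overlapped in monocytes and macrophages, where ND 2 (40.9 CPM) and MCDHFD 3 (44.3 CPM) exceeded ND 1 (39.9 CPM). Per1 in the 2 filtered libraries was above all 4 others in B and CD4 T cells only. It overlapped in CD8 T cells, NK cells, monocytes and macrophages, and neutrophils. The 2 filtered libraries lay outside the range of the other 4 for 62.2% of all genes in B cells, 57.5% in CD8 T, 56.6% in CD4 T, 42% in NK cells and in monocytes and macrophages, and 30.1% in neutrophils.

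The balance of Dbp to Arntl does not depend on the size of a library. It comes from the same counts as the differences of Dbp and Arntl above, so it is no separate support for them. Besides this pair, shares were computed only for Per1 with Arntl and for Dbp and Per1 with Clock, so no share over all pairs of genes stands beside them. Dbp made up 32.2% of Dbp and Arntl UMIs in B cells of ND 2 (95% Wilson interval 28.1% to 36.5%) and 34.1% (28.2% to 40.4%) in those of MCDHFD 3. It made up 15.5% and 14.0% in ND 1 and 3 and 12.4% and 14.9% in MCDHFD 1 and 2. The filtered libraries were above the other 4 in all 5 classes with enough UMIs. Their shares were 37.9% and 49.6% in CD8 T cells against 15.7% to 22.03%, and 33.7% and 53.3% in CD4 T cells against 17.7% to 19.3%. In monocytes and macrophages they were 29.0% and 46.9% against 2.72% to 14.5%, and in NK cells 50% and 30% against 6.12% to 17.9%. The NK shares rest on 12 and 10 UMIs in the filtered libraries. The same balance of Per1 to Arntl was higher in both filtered libraries in B, CD8 T and CD4 T cells (44.0% to 54.0% against 16.8% to 22.1% in B cells), and overlapped in NK cells and in monocytes and macrophages. That of Dbp to Clock was higher in all 5 classes (33.2% to 36.5% against 10.9% to 17.4% in B cells). The share of Per1 with Clock was higher in B, CD8 T, CD4 T and NK cells, the last on 4 Per1 UMIs in each filtered library. It overlapped in monocytes and macrophages and in neutrophils. Intervals cover counting error only.

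**Figure D3:**
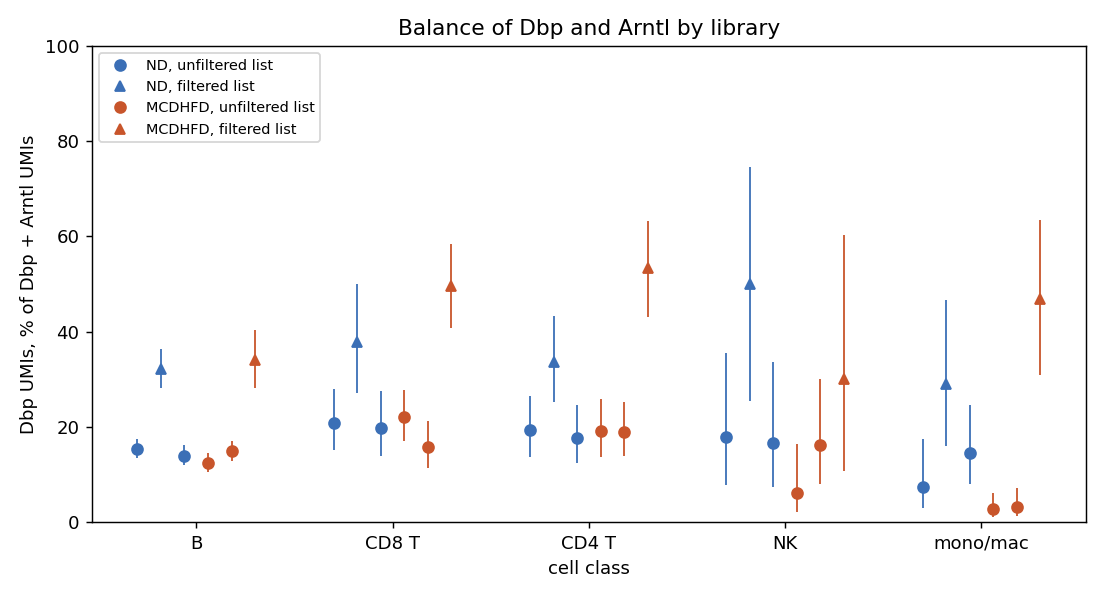
Share of Dbp in the sum of Dbp and Arntl UMIs, in percent, by cell class, with 1 point per library and 95% Wilson intervals. In each of the 5 classes both filtered libraries (triangles), 1 from each diet, lie above the 4 libraries with unfiltered lists (circles), as with 32.2% and 34.1% against 12.4% to 15.5% in B cells.

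Other properties moved with list form. Mitochondrial share and depth are given above. In B cells 53.5% of all genes passed by list form (edgeR adjusted p under 0.05). Of 9 heat shock genes tested there, 8 were lower and none higher in the filtered libraries. Of 16 immediate early genes 7 were higher and 1 lower, which is near the share of all genes. Of 12 glucocorticoid-responsive genes, a list that holds Per1, 4 were higher and 2 lower in the filtered libraries, also near that share. In CD8 T cells all 10 tested passed, 6 higher and 4 lower, against 48.5% of all genes. In CD4 T cells 9 of 11 passed, 6 higher and 3 lower, against 46.4%. DESeq2 called 5 of 10 (3907 of 10833 genes) and 7 of 11 (3224 of 10106 genes) there. In edgeR 5 of 10 passed in NK cells (15.3%), 1 of 12 in monocytes and macrophages (19.8%) and 0 of 10 in neutrophils (10.9%). The part of these properties in the difference of the clock genes was not tested, and the labels give no time of harvest.

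Between the diets few members passed. Of the 10 tested in B cells 1 passed, against 5.43% of all genes, and 1 of 7 in NK cells, against 4.14%, and 1 of 3 in neutrophils, against 25.9%. At an unadjusted p under 0.05 in edgeR were 6 of 10 in B cells, against 3318 of 14003 genes. It was 2 of 7 in NK cells (1698 of 8485 genes) and 2 of 3 in neutrophils (2890 of 7345 genes). In edgeR 0 of 8 passed in CD8 T cells, against 1.45% of all genes, with 2 at an unadjusted p under 0.05. It was 0 of 7 in CD4 T cells, against 2.95%, with 1 such, and 0 of 8 in monocytes and macrophages, against 0.625%, with 1 such. DESeq2 called none in these 3 classes either, against 1.06% of all genes in CD8 T cells, 1.7% in CD4 T cells and 1.68% in monocytes and macrophages. With diet alone as the term edgeR called no member in any class, with at most 1 per class at an unadjusted p under 0.05. The shares of all genes it called were 0.00756% in B cells, 0.00968% in CD8 T cells, 0% in CD4 T and NK cells, 0.0294% in monocytes and macrophages and 6% in neutrophils. The median log2 difference by diet of the members tested was 0.34 in B cells, where the median of all genes was 0.0016. It was 0.24 in CD8 T cells, -0.11 in CD4 T cells, 0.51 in NK cells, -0.19 in monocytes and macrophages and 1.00 in neutrophils, against medians of all genes between -0.03 and 0.05. The diets did not overlap for 2 of 8 members in CD8 T cells (Nr1d2 and Tef, against 8.21% of all genes). It was 0 of 7 in CD4 T cells (9.53%), 1 of 7 in NK cells (Nr1d2, 12.8%) and 0 of 8 in monocytes and macrophages (10.8%). In neutrophils it was 3 of 3 (Per1, Per2 and Clock), against 30.3% of all genes, and Clock there rests on 42 UMIs in all.

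Nr1d2 was the member that rose with MCDHFD in B cells, by a log2 difference of 0.75 (SE 0.113, edgeR adjusted p = 0.0136). Its levels were 11.3, 11.2 and 14.6 CPM in ND and 24.9, 21.3 and 18.2 CPM in MCDHFD. The diets did not overlap, which was so for 3 of the 10 members (Per2, Per3 and Nr1d2) and for 11.6% of all genes. Within list forms the ratio of MCDHFD to ND was 1.62 (counting interval 1.24 to 2.11) in the filtered pair and 1.80 (1.62 to 2.00) in the unfiltered libraries. The call was lost without ND 1, ND 3 or MCDHFD 1 (edgeR adjusted p = 0.057, 0.0502 and 0.0696) and with diet alone (0.452). Nr1d2 was positive in all 5 classes tested, at 0.55 in CD8 T cells, 0.51 in NK cells, 0.20 in CD4 T cells and 0.09 in monocytes and macrophages, none of which passed (edgeR adjusted p from 0.108 to 0.927). Summed B cell markers were 2986 to 3705 CPM in ND and 2796 to 2868 CPM in MCDHFD, and the plasma cell markers Jchain and Xbp1 1296 to 2374 and 929 to 3630 CPM. In barcodes with at most 100 UMIs Nr1d2 was at 10.3 and 8.81 CPM in ND 1 and 3 and at 18.5 and 16.8 CPM in MCDHFD 1 and 2. The part of these was not tested.

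Among the 4 libraries with unfiltered lists alone, 4 of 9 members were higher with MCDHFD in B cells and none lower, against 24% of all genes called. These were Nr1d2 (0.76), Clock (0.50), Tef (0.37) and Per2 (0.80), with edgeR adjusted p between 0.00472 and 0.0419. With all 6 libraries Clock differed by 0.38, Tef by 0.36 and Per2 by 0.60 (edgeR adjusted p = 0.0687, 0.0769 and 0.124).

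Per1 rose with MCDHFD in NK cells and neutrophils. In NK cells it was at 4.12, 13.8 and 2.48 CPM in ND and 13.2, 21.3 and 27.2 CPM in MCDHFD, a log2 difference of 1.90 (SE 0.524, edgeR adjusted p = 0.0401). The diets overlapped, by ND 2 and MCDHFD 1, and the counts were 4, 4 and 2 UMIs in ND and 14, 27 and 4 UMIs in MCDHFD. In neutrophils it was at 15.3, 11.9 and 22.8 CPM in ND and 24.2, 44.7 and 44.0 CPM in MCDHFD, a log2 difference of 1.00 (SE 0.334, edgeR adjusted p = 0.0393), with no overlap. Per1 was also positive in the other 4 classes, at 0.25 to 0.88, without passing (edgeR adjusted p from 0.158 to 0.652).

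Both Per1 calls lay close to the threshold. In NK cells the call was lost without ND 1, ND 3, MCDHFD 1 or MCDHFD 2 (edgeR adjusted p = 0.219, 0.243, 0.0621 and 0.287). In neutrophils it was lost without ND 1, ND 2, ND 3, MCDHFD 2 or MCDHFD 3 (0.235, 0.0919, 0.0528, 0.181 and 0.109), and in DESeq2 (0.0878). In neutrophils the monocyte and macrophage markers summed to 7625 to 10136 CPM in ND and 2117 to 3920 CPM in MCDHFD, and the erythroid markers to 37.1 to 2230 and 25.8 to 21213 CPM. The part of these, and of the Per1 level in barcodes with at most 100 UMIs given above, was not tested.

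Other glucocorticoid-responsive genes were higher with MCDHFD beside Per1. The counts that follow stand against 25.9% of all genes called by diet in neutrophils and 0.625% to 5.43% in the other classes, so they cannot be set side by side between neutrophils and the rest. Fkbp5, whose product restrains glucocorticoid receptor activity, rose in all 6 classes, by 1.45 in CD4 T cells (edgeR adjusted p = 0.00456) to 2.58 in monocytes and macrophages (0.0212). In neutrophils Fkbp5 was at 50.4, 27.9 and 41.9 CPM in ND and at 106, 358 and 101 CPM in MCDHFD, so the diets did not overlap. Of the 12 genes of the list, Per1 included, 7 of 10 tested were higher and 1 (Mt1) lower in neutrophils, where Tsc22d3 (1.62) and Sgk1 (1.61) had the smallest p. In NK cells 4 of 10 were higher, Fkbp5 (1.74), Ddit4 (1.19), Tsc22d3 (0.76) and Per1. In CD4 T cells, where Per1 was at 0.25 and did not pass, 6 of 11 were higher, among them Tsc22d3 (0.98) and Il7r (0.62). In CD8 T cells it was 3 of 10 (Fkbp5, Ddit4 and Tsc22d3), in B cells 3 of 12 (Fkbp5, Zbtb16 and Il7r), and in monocytes and macrophages Fkbp5 alone of 12. Immediate early genes, known to be induced by tissue handling, passed in neutrophils for 9 of 15 tested, all higher, led by Jund (1.17), Ier3 (1.16) and Fosl2 (1.10). In NK cells 1 of 11 (Jun, -1.45) and in CD4 T cells 2 of 14 (Egr1, -0.97, and Egr2, -1.70) passed and were lower, in B cells 1 of 16 (Fosl2, 2.86) was higher, and none passed in CD8 T cells or in monocytes and macrophages in edgeR, with 4 of 15 and 2 of 14 at an unadjusted p under 0.05. Heat shock genes that passed by diet were all lower with MCDHFD, 3 of 9 in B cells, 2 of 9 in CD8 T and in CD4 T cells, 1 of 8 in NK cells, 1 of 9 in monocytes and macrophages and 3 of 6 in neutrophils. Whether Per1 followed any of these lists was not tested.

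**Figure D4:**
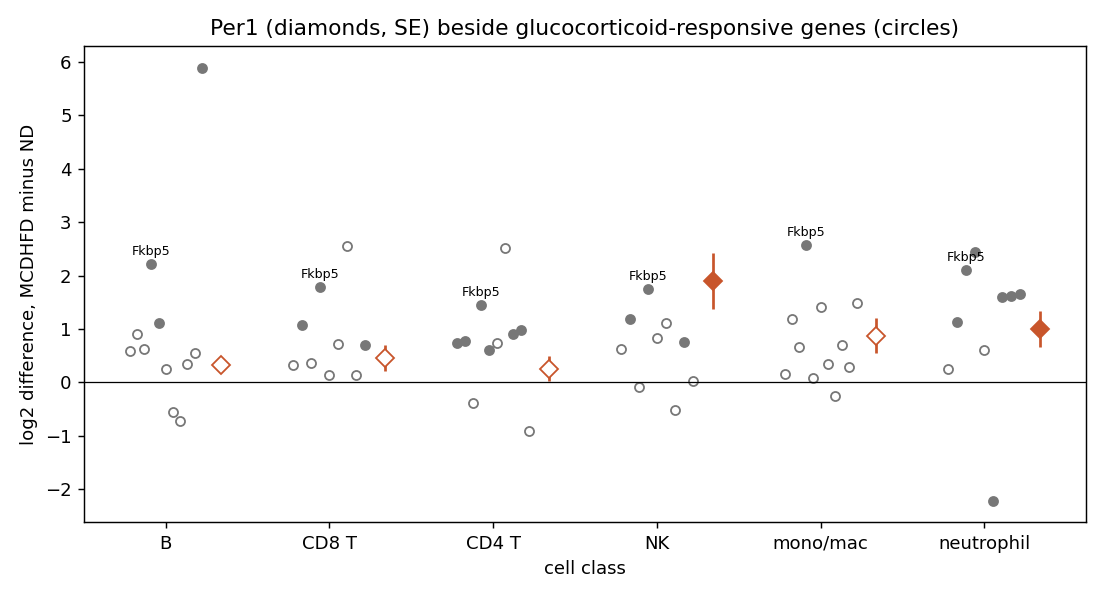
Log2 difference, MCDHFD minus ND, of Per1 (orange diamonds, bars of 1 SE) and of the other glucocorticoid-responsive genes (circles) in each cell class, filled where the edgeR adjusted p was under 0.05. Fkbp5 is positive and filled in all 6 classes, and Per1 is filled in NK cells (1.90) and neutrophils (1.00).

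The diet difference of 1 member, Arntl, itself differed between the 6 classes (edgeR F test over the class by diet terms, adjusted p = 0.0375, 1 of 9 members against 13.6% of all genes). Its fitted differences were -0.52 in CD4 T cells, -0.20 in CD8 T cells and 0.02 in B cells, and 0.30 in monocytes and macrophages and 0.40 in NK cells. None passed within a class (edgeR adjusted p from 0.0978 to 0.913). In CD4 T cells Arntl was at 51.1, 40.8 and 53.1 CPM in ND and 37.6, 43.6 and 19.4 CPM in MCDHFD, and the diets overlapped by ND 2 and MCDHFD 2. In monocytes and macrophages it was at 21.7, 19.99 and 26.2 CPM in ND and 41.4, 31.3 and 12.8 CPM in MCDHFD, with MCDHFD 3 the lowest of all 6. The test was lost without ND 1, ND 2, ND 3, MCDHFD 1 or MCDHFD 3 (edgeR adjusted p = 0.357, 0.0644, 0.119, 0.556 and 0.0701).

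Of 19 further clock and clock output genes, up to 15 were tested in a class, and 7 differences by diet passed in all. These were 2 of 15 in B cells (against 5.43% of all genes), 1 of 11 in CD8 T cells (1.45%), 1 of 12 in CD4 T cells (2.95%) and 3 of 9 in neutrophils (25.9%). In B cells Bhlhe40, a repressor of the ARNTL and CLOCK pair, fell by 0.57 and Csnk1e, a kinase of PER proteins, fell by 0.60 on the log2 scale (edgeR adjusted p = 0.0242 and 0.036). Neither passed without ND 1, ND 3, MCDHFD 1 or MCDHFD 2. In CD4 T cells Rora, an activator of Arntl through ROREs that is also used in T helper subsets, fell by 1.01 (edgeR adjusted p = 0.00151). Its levels there were 85.4, 59.1 and 90.8 CPM in ND and 41.2, 51.8 and 24.0 CPM in MCDHFD, and the diets did not overlap. In CD8 T cells Tspan4 rose by 1.60 (edgeR adjusted p = 0.0358), and no gene of the list passed there in DESeq2, with diet alone, with no filter on low counts, with cells of several classes kept, in the 4 unfiltered libraries, or without ND 1, ND 2, ND 3, MCDHFD 2 or MCDHFD 3. In neutrophils Csnk1e rose by 0.69 and the cell cycle kinase gene Wee1 fell by 2.22, and no gene of the list passed there without ND 1. None of 8 passed in NK cells (4.14%) and none of 11 in monocytes and macrophages (0.625%) in edgeR, with 1 and 4 at an unadjusted p under 0.05. DESeq2 called none in either class, but a gene to which it gave no adjusted p counts there as not called.

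The same list was also read by list form, where 53.5% of all genes passed in B cells, 48.5% in CD8 T cells, 46.4% in CD4 T cells and 19.8% in monocytes and macrophages. The shares called in these classes lie near or below that background, and these counts are no result about the list. In B cells 4 of 15 passed, among them Csnk1e (0.60) and Timeless (0.57) higher and Nampt (-0.54) lower in the filtered libraries. In CD8 T cells 4 of 11 passed, among them Tspan4 (1.08) and Csnk1e (0.59) higher and Nampt (-0.55) lower, but 0 of 11 were called in DESeq2, with 1 at an unadjusted p under 0.05. In CD4 T cells 5 of 12 passed, among them Timeless (0.76) higher and Rora (-0.83), Cry1 (-0.83) and Npas2 (-2.29) lower. In monocytes and macrophages Nfil3 (0.70) and Tspan4 (1.18) passed of 11. In edgeR 0 of 8 passed in NK cells (against 15.3% of all genes) and 0 of 9 in neutrophils (10.9%), with 0 at an unadjusted p under 0.05. DESeq2 called 0 in both, also with 0 at an unadjusted p under 0.05, and a gene without an adjusted p counts there as not called. Whether this list differs from the members was not tested.

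Likeness was measured by Pearson's r over log2 CPM of libraries and classes, centred within each class, in classes where the member averaged at least 20 CPM. The points share libraries and depth, and the values describe these samples only. For Arntl, over 30 points in 5 classes, the genes most alike among 4469 were Arid4a (0.87), Trim33 (0.86) and Phf8 (0.86), and Clock was at 0.62. For Per1, over 12 points in neutrophils and in monocytes and macrophages, they were Il4ra (0.91), Dedd2 (0.90) and Socs3 (0.87) among 4040. Dbp reached that level in no class.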

How the data were processed

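The 6 libraries hold gene counts of single splenocytes, 3 from each diet. Per the labels' protocols, libraries were made with droplet-based 10x Genomics 3' kits and sequenced on an Illumina NovaSeq. Per the submitters' processing notes, Cell Ranger 9.1.0 and Seurat 4.3.0 were used with mm10. The file headers instead name Cell Ranger 9.0.1 and 7.2.0. The deposited values are raw UMI counts per gene and barcode, and were checked to be whole numbers.

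UMIs were summed per library and class over cells with at least 1000 UMIs and at most 10% mitochondrial UMIs. The 2115 cells that met more than 1 class rule and the 4532 that met none were left out, and no doublet caller was run, so doublets within 1 class remain. Sums were tested in edgeR 4.0.16 (R 4.3.3, quasi-likelihood, TMM, filterByExpr) with diet and list form as terms and Benjamini-Hochberg adjustment over all genes of a class. The difference between classes was tested on all sums with library, class, class by diet and class by list form. DESeq2 1.42.0 was an alternative, beside those in the closing section, and members to which it gave no adjusted p were left out of counts of lost calls. Summaries used Python 3.11.15. Scripts were tested on simulated data. Class sums held between 147069 and 26816028 UMIs, and with 3 libraries against 3 a two-sided exact permutation test cannot go below p = 0.1.

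The members and gene lists were chosen with earlier results of these data known. All members are named. Of the other clock genes those past adjusted p of 0.05 are named, except 1 that is counted but not reported here, of the glucocorticoid and immediate early lists up to 3 per class with the smallest p, and per member the 3 genes with the highest r. Members singled out further were chosen after their values were seen. Per1 stands in 2 lists. Gene names are those of the count tables. Promoters are from the RefSeq table of GRCm38.p6, and no other coordinates are given.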

Additional observations from a re-analysis of the deposited data

Results flagged for a closer look

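Arntl was the 1 member whose diet difference differed between the cell classes by the test of that difference (edgeR F test, adjusted p = 0.0375117). The fitted log2 differences, MCDHFD minus ND, ran from -0.52 in CD4 T cells to 0.40 in NK cells, with 0.02 in B cells. Over the 8 alternatives the adjusted p ranged from 0.0449 to 0.556, and it stayed under 0.05 when MCDHFD 2 was left out and in no other alternative. Across all genes 13.6% passed the same test.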

How the results depend on the processing

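Called directions kept their sign under every alternative tried, among 617 member differences by diet and 546 by list form recomputed. Of these, 552 and 467 kept their side of the threshold and sign, 22 and 32 lost a call and 17 and 9 gained one. A further 64 changed sign, none called under either setting. By list form in B cells Arntl, Clock, Per1, Dbp and Nr1d1 passed under all 13 alternatives, and Ciart lost its call in 9 and Nr1d2 in 7. Causes of the changes below were not tested, except that leaving out libraries and the 4 unfiltered libraries use fewer samples.

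With diet alone as the term, the members called by diet were 0 in B cells, NK cells and neutrophils, where each had 1. Other clock genes called were then 0 in B, CD8 T and CD4 T cells, and all genes called 1 in B, 1 in CD8 T, 0 in CD4 T and 0 in NK cells, 3 in monocytes and macrophages and 401 in neutrophils. In DESeq2 the members called by diet were 2 in B cells and 0 in neutrophils, and none of the 7 in NK cells had an adjusted p. Other clock genes called were 0 in CD8 T cells, and all genes 1181 in B cells, 172 in CD4 T cells, 97 in NK cells, 180 in monocytes and macrophages and 1188 in neutrophils. With upper-quartile scaling the members called in neutrophils were 0.

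With no filter on low counts, the members called by diet were 2 in B cells and 1 in monocytes and macrophages, and by list form 3 in the latter. Other clock genes were then 4 in B cells, 0 in CD8 T cells and 1 in monocytes and macrophages, and all genes 1515 in B, 93 in CD8 T and 453 in CD4 T cells and 691 in monocytes and macrophages. With cells of several classes kept, members by diet were 0 in NK cells and neutrophils, and by list form 1 in NK cells and 2 in monocytes and macrophages. Other clock genes were 1 in B cells, 0 in CD8 T cells and 1 in neutrophils, and all genes 56 in CD8 T, 182 in CD4 T and 183 in NK cells, 118 in monocytes and macrophages and 623 in neutrophils. The difference between classes then held 0 members, as it did without class by list form. At least 2000 UMIs gave 2 members by list form in monocytes and macrophages. At most 5% mitochondrial UMIs gave 0 members by diet in NK cells, 1 other clock gene in B cells and 199 genes in NK cells.

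The 4 unfiltered libraries alone gave 4 members by diet in B cells and 0 in neutrophils, other clock genes 0 in CD8 T and 2 in CD4 T cells, and 3180, 804, 604 and 953 genes in B, CD8 T, CD4 T and NK cells and 9 in monocytes and macrophages. Leaving out each library gave 0 to 4 members by diet in B cells, 0 to 1 in CD8 T and NK cells, 0 to 2 in neutrophils, and 0 in CD4 T cells and in monocytes and macrophages. By list form it gave 5 to 6 members in B cells, 1 to 5 in CD8 T and CD4 T cells and 0 to 3 in monocytes and macrophages. Other clock genes were 0 to 3 in B, 0 to 1 in CD8 T, 1 to 2 in CD4 T and 0 to 1 in NK cells and 0 to 4 in neutrophils. All genes were 124 to 2895 in B, 48 to 795 in CD8 T, 68 to 565 in CD4 T and 11 to 1089 in NK cells, 0 to 113 in monocytes and macrophages and 295 to 2053 in neutrophils. The difference between classes held 0 to 1 members.

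For replicate number 1, deviations from the diet means correlated at 0.249 to 0.591, and for numbers 2 and 3 at -0.702 to -0.348. Numbers 2 and 3 each join a filtered with an unfiltered library, and the means took no account of list form. These correlations therefore cannot show whether replicate numbers pair the libraries. With the replicate block beside list form, members by diet were 2 in B and 1 in CD4 T cells, 0 in NK cells and 1 in monocytes and macrophages, and by list form 3 in the latter. Per1 by list form was not called in CD8 T and CD4 T cells (adjusted p = 0.108 and 0.0601). Other clock genes in B cells were 4, and all genes 1372 in B, 237 in CD8 T, 493 in CD4 T and 185 in NK cells and 723 in monocytes and macrophages. The small classes limit what could be seen. NK sums of the filtered libraries held 290884 and 147069 UMIs, and an absent member could there be as high as 10.3 and 20.4 CPM.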

Other observations

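Some of the further clock and clock output genes also differed between classes in their response to the diets. In the test of the class by diet terms Rora, an activator of Arntl, had an edgeR adjusted p of 0.0016. Its log2 difference was -1.01 in CD4 T cells and 0.64 in NK cells (edgeR adjusted p = 0.0901), where it was at 53.5, 37.8 and 48.4 CPM in ND and 104, 71.8 and 47.6 CPM in MCDHFD. Csnk1e (edgeR adjusted p = 0.00299), a kinase of PER proteins, and Nampt (0.00932), the rate-limiting enzyme of NAD salvage, passed the same test, as did 13.6% of all genes. Rora passed under all 8 alternatives (0.00452 to 0.038). Csnk1e lost the call without ND 1, MCDHFD 1 or MCDHFD 2 (0.188, 0.0816 and 0.0548) and with cells of several classes kept (0.0571). Nampt lost it without ND 1, ND 3, MCDHFD 1 or MCDHFD 2 (0.284, 0.0862, 0.0545 and 0.288) and with cells of several classes kept (0.153).

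Zbtb16, a glucocorticoid-responsive gene, differed by a log2 of 5.90 between the diets in B cells. It was at 0.149, 0.46 and 0.235 CPM there in ND, on 4, 5 and 5 UMIs, and at 9.02, 27.9 and 4.76 CPM in MCDHFD, so the diets did not overlap. In NK cells, where it is a known lineage gene, it was at 16.1 to 30.9 CPM in ND and 6.80 to 37.1 CPM in MCDHFD. In CD4 T cells it was at 11.8, 15.8 and 18.4 CPM in ND and 12.4, 7.61 and 3.70 CPM in MCDHFD. In monocytes and macrophages it was at 33.8, 17.3 and 44.0 CPM in ND and 53.7, 201 and 27.1 CPM in MCDHFD. The diets overlapped in each of these classes.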
